A study of Mus musculus with 6 samples.

Results

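YAP and TAZ are transcriptional coactivators that have no DNA-binding domain and act on genes through the TEAD factors. The 10 genes described here are the coactivators *Yap1* and *Wwtr1* (which encodes TAZ), the 4 TEAD genes *Tead1*, *Tead2*, *Tead3* and *Tead4*, and the target genes *Ankrd1*, *Amotl2*, *Lats2* and *Ajuba*. They were found by gene symbol among the 25403 genes of the count table, and each had a row. Their RNA was measured by bulk RNA-seq of poly(A) RNA in whole livers of 3 mice labelled wild-type C57BL6/J and 3 labelled Themis KO (whole-body), with 1 library per liver. All 6 mice had been fed the same MASH diet, in which fat gives 40% and fructose 20% of the energy and cholesterol makes up 2%, for 3 months from an age of 10 to 12 weeks, so no liver here is free of the diet. The sex of these animals is not in the labels. The deletion was not limited to one cell type, and the tissue was not sorted, so fewer cells of a type and less RNA per cell cannot be told apart.

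The pathway works as a brake on growth. In the Hippo cascade, the MST kinases (*Stk3* and *Stk4*) activate the LATS kinases, which phosphorylate YAP and TAZ and keep them out of the nucleus. When the brake is off, YAP and TAZ bind TEAD proteins on DNA and raise genes for cytoskeletal, matrix and growth control, some of which, such as *Lats2* and *Amotl2*, feed back on the pathway. In liver, YAP is known for its control of organ size, for its high level in bile duct cells and for its role in regeneration and in stellate cell activation. YAP and TAZ are controlled to a large extent at the protein level, which transcript counts do not measure.

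TEAD proteins recognize a short element whose core is GGAATG, or CATTCC on the other strand. Both strands were searched for these 6 letters in the RefSeq promoter windows of the GRCm38.p6 build, which run from 250 bases before to 50 bases after a transcript start. Of the 10 genes, 8 have a window, and *Tead1* and *Tead4* do not. The letters occurred in at least 1 window of 7 of these 8 genes, at 12 separate places, and not in the window of *Tead2*. Of all 27025 genes with a window, 16.6% had the letters in at least 1, and of the 32851 windows 14.7% had them. Among the other target genes described below, 4 of the 12 with a window (33.3%) had them. A match describes the sequence and is not a binding site. The 12 places are shown 5′ to 3′ along the gene with 10 bases on each side, because 7 of the 8 genes hold at least 1. Capitals mark the match, and the number after the gene is the position of its first base counted from the transcript start, which is base 1, followed by the place of the match in GRCm38.p6.
Yap1 −141, chr9:8004732-8004737: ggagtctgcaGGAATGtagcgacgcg
Wwtr1 −136, chr3:57576041-57576046: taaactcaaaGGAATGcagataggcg
Tead3 −182, chr17:28350982-28350987: cgacgagcgaGGAATGgggtgcgcgg
Tead3 −123, chr17:28350718-28350723: cggccgggctCATTCCgtacattccg
Tead3 −114, chr17:28350709-28350714: tcattccgtaCATTCCggccatcccc
Tead3 3, chr17:28350593-28350598: gtaagcccggGGAATGcaactcggag
Ankrd1 −210, chr19:36120049-36120054: cactgccaaaGGAATGaccctctcac
Ankrd1 −123, chr19:36119962-36119967: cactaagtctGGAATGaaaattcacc
Amotl2 −65, chr9:102717739-102717744: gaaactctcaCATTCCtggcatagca
Lats2 5, chr14:57746114-57746119: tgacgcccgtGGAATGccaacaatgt
Ajuba −186, chr14:54577842-54577847: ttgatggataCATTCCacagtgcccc
Ajuba −164, chr14:54577820-54577825: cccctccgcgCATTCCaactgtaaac

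The *Wwtr1* match lies in both of its overlapping windows, and the first *Tead3* match is counted from another start than the other *Tead3* matches. No match overlaps another. In the GENCODE vM21 annotation of GRCm38, the matches of *Yap1*, *Wwtr1* and *Ajuba* and the match of *Tead3* at −182 lie upstream of the gene, and those of *Ankrd1*, *Amotl2* and *Lats2* and the other *Tead3* matches lie in exons of the gene. The 250 bases before the start are shown for *Ajuba*, which was called higher, and for *Yap1*, which did not pass the test, both on the reverse strand of GRCm38.p6, with the matches in capitals. The *Ajuba* stretch is chr14:54577662-54577911 and the *Yap1* stretch is chr9:8004597-8004846.
Ajuba: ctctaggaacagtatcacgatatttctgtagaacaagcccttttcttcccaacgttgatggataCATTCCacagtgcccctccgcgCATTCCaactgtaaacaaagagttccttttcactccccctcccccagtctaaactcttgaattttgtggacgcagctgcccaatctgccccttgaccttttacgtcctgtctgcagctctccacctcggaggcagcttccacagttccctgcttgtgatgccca
Yap1: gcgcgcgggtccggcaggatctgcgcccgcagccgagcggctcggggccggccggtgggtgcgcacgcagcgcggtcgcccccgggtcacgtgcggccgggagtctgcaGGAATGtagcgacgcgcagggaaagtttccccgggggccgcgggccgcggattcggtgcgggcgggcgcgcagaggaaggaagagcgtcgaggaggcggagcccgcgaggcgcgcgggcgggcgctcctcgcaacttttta

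The libraries held between 20679642 and 25649767 estimated counts. Levels below are estimated counts per 1000000 after TMM scaling of the libraries (CPM), and differences are log2 fold changes of livers labelled *Themis*-KO over livers labelled WT. A gene was called where edgeR's quasi-likelihood test gave it a Benjamini-Hochberg adjusted p, taken over 14496 genes, of under 0.05. *Themis* itself was at 8.07 to 25.6 CPM under the WT label and at 7.74 to 9.97 CPM under the *Themis*-KO label. Its level overlapped between the labels, so the groups are named by their labels throughout. The mitochondrial gene *mt-Nd3* and its nuclear copy *Gm28438* also divided the livers, since *Gm28438* took 96.6% and 96.8% of the counts of the pair in WT replicates 1 and 2 and 2.2% to 3.26% in the other 4 livers, WT replicate 3 among them. This is called the mitochondrial type, and it cannot be told apart from genotype in those WT livers. *Themis*-KO replicate 3 stood apart from the other livers of its group across genes at large, and so in several genes named below. The chi-square per degree of freedom between a pair of livers, low counts left out, was 9.8 for *Themis*-KO replicates 1 and 2. It was 41 and 42.3 for these against replicate 3, and 27.6 to 36.1 for the pairs of livers labelled WT. The summed CPM of 7 hepatocyte markers was from 61600 to 64000 in livers labelled WT and from 47800 to 52700 in livers labelled *Themis*-KO. *Alb* made up most of each sum, at 39800 to 43000 and 33600 to 37300 CPM, and was not called (adjusted p = 0.185 from edgeR). *Hnf4a* had a log2 fold change of 0.045, the 1 positive one among the 7.

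Among the pathway's own factors and targets, *Ajuba* and *Tead1* rose in livers labelled *Themis*-KO, and *Yap1*, *Wwtr1*, *Tead3* and *Amotl2* did not pass the test, with log2 fold changes from −0.091 to 0.19. Of the 10 genes, 9 passed the filter on low counts, 2 of them were called higher and 0 lower, and 5 had an unadjusted p under 0.05. Of all genes tested, 4.97% were called higher and 4.14% lower, and 30.7% had an unadjusted p under 0.05. The median log2 fold change of the 9 genes was 0.34, against 0.0095 over all genes tested. In 4 of the 9 genes (*Ajuba*, *Tead1*, *Tead2* and *Ankrd1*) every liver labelled *Themis*-KO lay above every liver labelled WT, as in 17.7% of all genes tested. *Tead4* was left out by the filter. *Ankrd1* passed it with all 3 livers labelled *Themis*-KO and 2 of the 3 labelled WT above the limit, so its presence among the genes tested depended on the group in which it was higher.

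**Figure D1:**
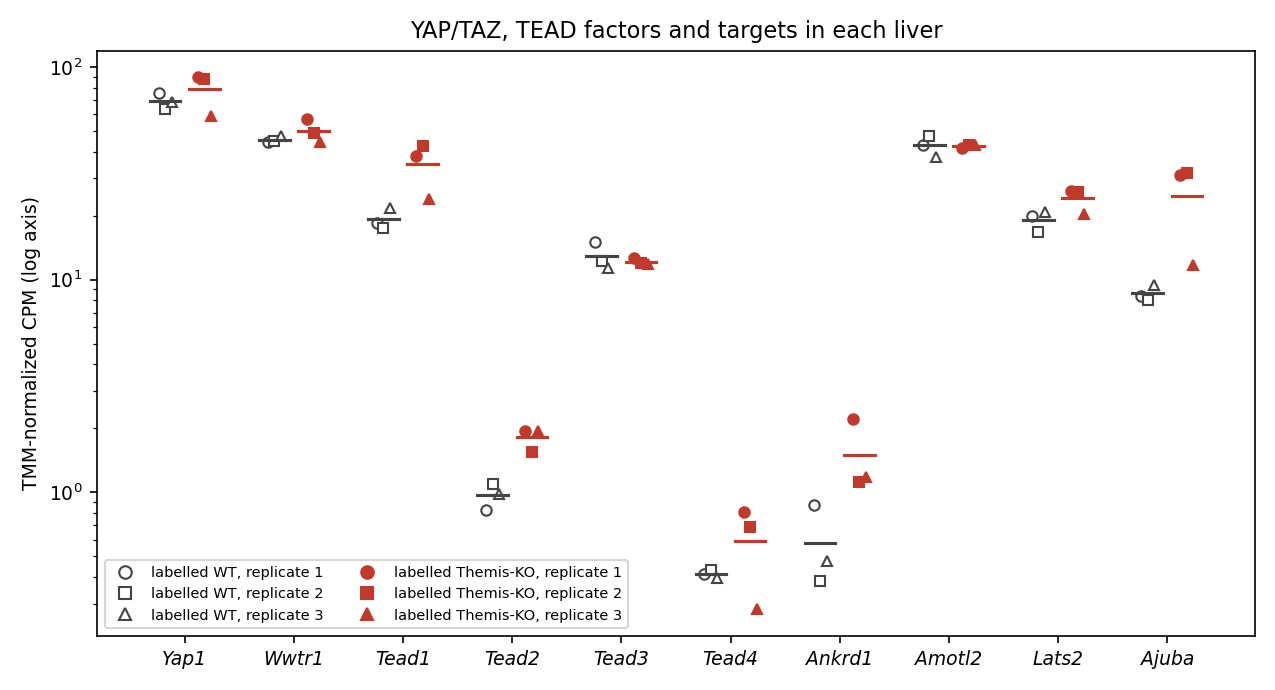
TMM-normalized CPM of the 10 genes in each liver, on a log axis, with open symbols for livers labelled WT, filled symbols for livers labelled *Themis*-KO, a symbol shape per replicate number and a bar at the group mean (n = 3). *Tead1* and *Ajuba* lie higher in *Themis*-KO replicates 1 and 2 than in replicate 3, which lies just above the WT livers, and the groups overlap for *Yap1*, *Wwtr1*, *Tead3*, *Tead4*, *Amotl2* and *Lats2*.

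The coactivator *Yap1*, on the reverse strand at chr9:7931999-8004596, was at 75.7, 63.6 and 68.4 CPM in the livers labelled WT, in the order of replicates 1, 2 and 3 that is kept below (gene positions are those of GENCODE vM21, GRCm38). The livers labelled *Themis*-KO had 89.4, 87.6 and 59.1 CPM. *Themis*-KO replicates 1 and 2 were thus above every WT liver and replicate 3 below every one. The log2 fold change was 0.19 (SE 0.16, 95% interval from −0.19 to 0.56, adjusted p = 0.462 from edgeR). *Yap1* shares 1.25% of its exon bases with the antisense gene *Gm20416*, and whether counting used the strand is not given in the sources used here.

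*Wwtr1*, on the reverse strand at chr3:57455649-57575910, encodes TAZ, which binds the same TEAD proteins as YAP. Its CPM was 44.4, 44.7 and 47.4 in the livers labelled WT and 56.8, 49.0 and 44.4 in the livers labelled *Themis*-KO. The order of the 3 livers labelled *Themis*-KO was that of *Yap1*, with replicate 1 highest and replicate 3 lowest, and replicate 3 lay at the level of WT replicate 1. The log2 fold change was 0.14 (SE 0.10, 95% interval from −0.10 to 0.38, adjusted p = 0.395 from edgeR). Per kilobase of merged exon, *Wwtr1* was 1.28 ± 0.125 times the level of *Yap1* in livers labelled WT and 1.26 ± 0.187 times in livers labelled *Themis*-KO (SD, n = 3 each, exact two-sided permutation test, p = 0.9).

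Of the DNA-binding partners, *Tead1* rose. The gene lies on the forward strand at chr7:112679318-112906807. The livers labelled WT had 18.5, 17.5 and 21.8 CPM, and those labelled *Themis*-KO had 38.0, 42.5 and 24.0 CPM. *Themis*-KO replicate 3 was just above the highest WT liver, and the other livers of its label stood well apart from it. *Tead1* rose by 0.85 on the log2 scale (SE 0.21, 95% interval from 0.38 to 1.33, adjusted p = 0.0429 from edgeR).

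*Tead2*, on the forward strand at chr7:45215753-45233644, was scarce. It had 0.826, 1.10 and 0.987 CPM in livers labelled WT and 1.95, 1.55 and 1.94 CPM in livers labelled *Themis*-KO. The groups did not overlap, and *Themis*-KO replicate 3 was as high as replicate 1. With a log2 fold change of 0.90 (SE 0.24, 95% interval from 0.34 to 1.45), it missed the threshold (adjusted p = 0.0562 from edgeR). It passed with scaling by total counts alone (adjusted p = 0.0362, where 10% of all genes were called higher) and when at least 10 counts were required in every liver (adjusted p = 0.0438, where 5.6% were). These were 2 of the 14 alternatives, and *Tead2* passed in 0 of the 6 fits that left out a liver.

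*Tead3*, on the reverse strand at chr17:28331671-28350817, did not pass the test. Its level was 15.1, 12.3 and 11.4 CPM in livers labelled WT and 12.7, 12.0 and 11.8 CPM in livers labelled *Themis*-KO, within the WT range. Its log2 fold change was −0.091 (SE 0.13, 95% interval from −0.39 to 0.21, adjusted p = 0.667 from edgeR), and its sign depended on the scaling, with 0.051 under total counts alone. *Tead4*, on the reverse strand at chr6:128224288-128300823, had 0.413, 0.432 and 0.395 CPM in livers labelled WT and 0.807, 0.688 and 0.283 CPM in livers labelled *Themis*-KO. Its highest and its lowest value were both in the group labelled *Themis*-KO (p = 0.4, exact two-sided permutation test).

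Divided by the length of its merged exons, the level of a TEAD gene can be set beside that of another. *Tead3* held 57.7%, 52.8% and 46.9% of the summed TEAD level in the livers labelled WT, against 35.5%, 32.9% and 43.8% in those labelled *Themis*-KO (exact two-sided permutation, p = 0.1, which is the lowest p possible with 3 livers a group). The *Tead1* share was 35.0%, 37.1% and 44.4% in livers labelled WT and 52.6%, 57.6% and 44.1% in livers labelled *Themis*-KO (p = 0.2 in the same exact test). Per kilobase, *Tead3* was thus the most abundant TEAD transcript in every WT liver and *Tead1* in every liver labelled *Themis*-KO. In *Themis*-KO replicate 3 the pair was nearly equal, with a ratio of *Tead1* to *Tead3* of 1.01. That ratio was 0.606, 0.704 and 0.946 in livers labelled WT and 1.48 and 1.75 in *Themis*-KO replicates 1 and 2 (exact two-sided permutation test over all 6 livers, p = 0.1). The order within a liver rests on the lengths used, 13570 bases for *Tead1* and 6714 for *Tead3*, and the isoforms in use may be shorter. In CPM not divided by length, *Tead1* was above *Tead3* in every WT liver, at 18.5, 17.5 and 21.8 against 15.1, 12.3 and 11.4. The summed TEAD level was 3.66 ± 0.217 CPM per kilobase in livers labelled WT and 4.92 ± 0.792 in livers labelled *Themis*-KO (SD, n = 3 each, exact two-sided permutation test, p = 0.1).

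**Figure D2:**
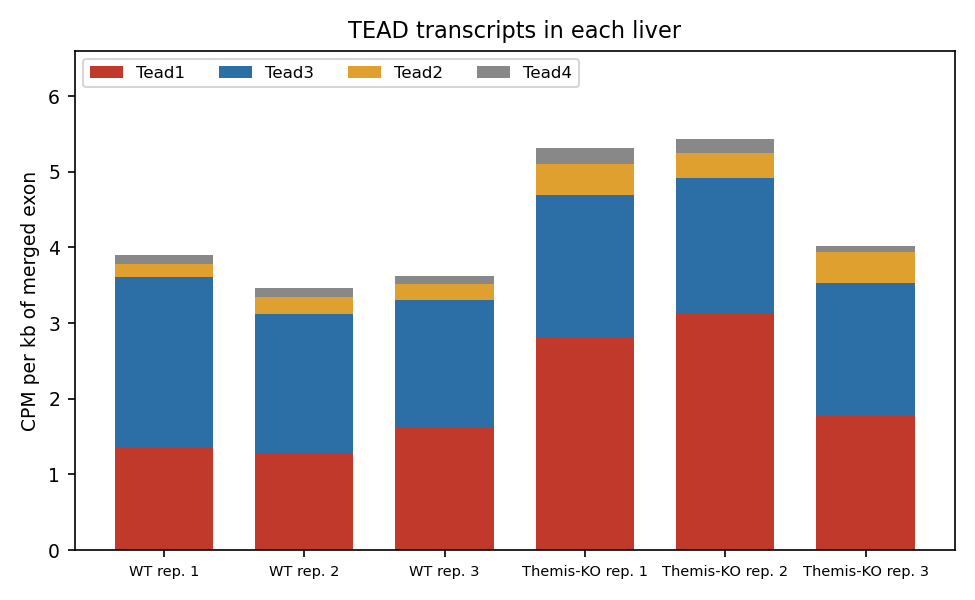
Level of the 4 TEAD transcripts in each liver, in CPM per kilobase of merged exon, stacked so that the bar height is the summed TEAD level. The *Tead1* part is 1.29 to 1.61 in livers labelled WT and 1.77 to 3.13 in livers labelled *Themis*-KO, while the *Tead3* part is 1.70 to 2.25 and 1.76 to 1.89.

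Among the targets, *Ajuba* rose. It encodes a LIM-domain protein that binds LATS kinases and restrains their action on YAP, and it lies on the reverse strand at chr14:54567472-54577558. Livers labelled WT had 8.39, 8.01 and 9.47 CPM, against 30.9, 31.6 and 11.7 CPM in livers labelled *Themis*-KO. The 3 WT livers were close to each other, 2 livers labelled *Themis*-KO were far above them, and replicate 3 lay just above WT replicate 3. *Ajuba* rose by 1.52 on the log2 scale (SE 0.34, 95% interval from 0.72 to 2.31, adjusted p = 0.0398 from edgeR), a fold of 2.86.

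*Ankrd1*, an ankyrin-repeat protein gene widely used as a readout of YAP activity, lies on the reverse strand at chr19:36111961-36120099 and was scarce in these livers. It had 19, 8 and 12 counts in livers labelled WT, or 0.872, 0.384 and 0.474 CPM. The livers labelled *Themis*-KO had 52, 26 and 25 counts, or 2.21, 1.12 and 1.18 CPM. Here replicate 1 alone stood out among the livers labelled *Themis*-KO, and replicate 3 was level with replicate 2. The log2 fold change of 1.38 (SE 0.42, 95% interval from 0.41 to 2.35) did not pass the threshold (adjusted p = 0.0745 from edgeR), and it did with DESeq2 (adjusted p = 0.0400, where 9.18% of all genes were called higher) and without the filter on low counts (adjusted p = 0.0382 from edgeR, where 4.77% were). *Ankrd1* passed in 3 of the 13 alternatives that held it, the fit without *Themis*-KO replicate 3 among them.

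*Amotl2*, which encodes an angiomotin-like protein that holds YAP in the cytoplasm, lies on the forward strand at chr9:102716672-102733418. Its CPM was 43.2, 47.5 and 37.9 in livers labelled WT and 41.4, 43.1 and 43.2 in livers labelled *Themis*-KO, all within the WT range. The log2 fold change was −0.010 (SE 0.099, 95% interval from −0.24 to 0.22, adjusted p = 0.956 from edgeR), and 0.13 with scaling by total counts alone. The groups of this established target differed by less than the spread between the WT livers.

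*Lats2*, the LATS kinase gene that YAP itself induces, lies on the reverse strand at chr14:57689662-57758388. It had 19.9, 16.7 and 20.8 CPM in livers labelled WT and 26.2, 25.9 and 20.4 CPM in livers labelled *Themis*-KO. As for *Yap1*, *Themis*-KO replicates 1 and 2 were above all WT livers and replicate 3 was not. The log2 fold change was 0.34 (SE 0.13, 95% interval from 0.029 to 0.65, adjusted p = 0.136 from edgeR). *Lats2* shares 42.4% of its exon bases with *Gm49361* on the same strand, so reads could be divided between them, and its values are uncertain.

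The calls depended on single livers. When 1 liver at a time was left out, *Tead1* differed by 0.68 to 1.05 and *Ajuba* by 1.29 to 1.84 on the log2 scale, and each passed the threshold in 1 of the 6 fits, the one without *Themis*-KO replicate 3. In the other 5 fits the adjusted p ran from 0.0654 to 0.155 for *Tead1* and from 0.0744 to 0.143 for *Ajuba*. Few genes of any kind were called higher without WT replicate 1 or 2, at 0.0809% and 0.128% of all genes. The same held without *Themis*-KO replicate 1 or 2, at 0.0543% and 0.183%. The fit without WT replicate 3 called 3.24% of all genes higher, against 4.97% with all livers. Without *Themis*-KO replicate 3, 5 of the 10 genes were called higher, namely *Ajuba*, *Tead1*, *Ankrd1*, *Lats2* and *Yap1*, where 15% of all genes tested were called higher. In that fit *Ajuba* changed by 1.84 (adjusted p = 0.00104), *Tead1* by 1.05 (adjusted p = 0.00208), *Ankrd1* by 1.51 (adjusted p = 0.0409), *Lats2* by 0.43 (adjusted p = 0.0263) and *Yap1* by 0.34 (adjusted p = 0.0285), all from edgeR. With the mitochondrial type as a covariate, which leaves WT replicate 3 as the WT liver to compare within a type, 0 members and 0% of all genes were called higher, and 2 members and 10.5% of all genes had an unadjusted p under 0.05 in edgeR. In that fit *Ajuba* differed by 1.38 (adjusted p = 0.461) and *Tead1* by 0.68 (adjusted p = 0.492), in the direction of the fit without it.

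**Figure D3:**
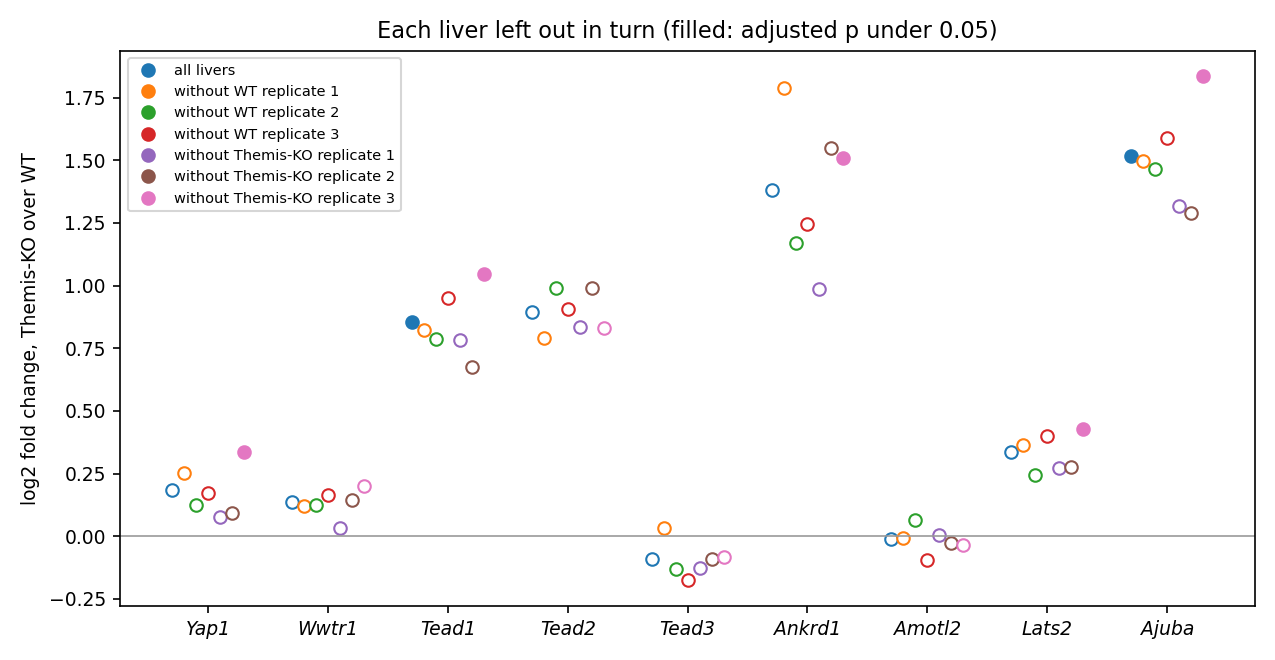
Log2 fold change of the 9 tested genes with all livers and with each liver left out in turn, filled where the adjusted p from edgeR is under 0.05. *Tead1* and *Ajuba* are filled with all livers and without *Themis*-KO replicate 3, the setting that also fills *Yap1*, *Ankrd1* and *Lats2*, while *Tead3* and *Amotl2* stay near 0.

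Per kilobase of merged exon, the 10 genes spanned a wide range of levels in livers labelled WT (mean ± SD, n = 3). *Wwtr1* was highest, at 9.52 ± 0.346 CPM per kilobase, followed by *Yap1* at 7.48 ± 0.658 and *Amotl2* at 6.82 ± 0.765, and *Yap1* and *Amotl2* overlapped. *Lats2*, *Ajuba*, *Tead3* and *Tead1* came next, at 2.74 ± 0.309, 2.37 ± 0.208, 1.93 ± 0.287 and 1.42 ± 0.166, with overlap between neighbours except for *Tead3* and *Tead1*. *Tead2* and *Ankrd1*, at 0.203 ± 0.0288 and 0.200 ± 0.0900, could not be ordered, and *Tead4* was lowest, at 0.115 ± 0.00514. In livers labelled *Themis*-KO, *Ajuba* reached 6.78 ± 3.10 CPM per kilobase, beside *Amotl2* at 6.77 ± 0.161, but its 3 livers ran from 3.21 to 8.67. These lengths count every annotated exon, and the isoforms in use may be shorter.

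Other target genes of YAP, TAZ and TEAD rose too, among them *Ccn2* and *Ccn1*. Of the 19 genes of a published target signature that are not among the 10, 18 were tested, 7 were called higher and 0 lower (4.97% and 4.14% of all genes), and 9 had an unadjusted p under 0.05 (30.7% of all genes). Their median log2 fold change was 0.38, and 15 of the 18 were positive, as were 51% of all genes tested. The rest of that signature, *Ankrd1*, *Amotl2* and *Lats2*, is among the 10 genes and was not called. *Ajuba* is not part of the signature. *Ccn2*, the connective tissue growth factor gene and a classical target, had 14.3, 15.2 and 12.1 CPM in livers labelled WT and 31.1, 30 and 36.6 CPM in livers labelled *Themis*-KO. All 3 livers labelled *Themis*-KO were about as high as each other, replicate 3 being the highest, unlike *Ajuba* and *Tead1*. *Ccn2* rose by 1.23 (SE 0.12, 95% interval from 0.94 to 1.52, adjusted p = 0.00926 from edgeR), and it passed the threshold in all 6 fits that left out a liver.

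*Ccn1*, which encodes the matricellular protein CYR61, had 8.35, 9.74 and 10.1 CPM in livers labelled WT. Under the *Themis*-KO label it had 53.4, 31.4 and 12.8 CPM. This was the split seen for *Ajuba*, with replicate 3 just above the WT livers. *Ccn1* rose by 1.79 (SE 0.44, 95% interval from 0.77 to 2.81, adjusted p = 0.0464 from edgeR), and without *Themis*-KO replicate 1 it was 1.23 (adjusted p = 0.130). *Tgfb2*, a TGF-β ligand gene, rose by 1.38 (SE 0.30, adjusted p = 0.0374) and *Myof*, the membrane-repair gene myoferlin, by 1.14 (SE 0.25, adjusted p = 0.0369). *Ccdc80*, a matrix protein gene, rose by 0.88 (SE 0.12, adjusted p = 0.0131) and *Axl*, a receptor tyrosine kinase gene, by 0.82 (SE 0.14, adjusted p = 0.0224). *Crim1*, outside the naming rule and named after its value was seen, rose by 0.38 (SE 0.090, adjusted p = 0.0426), a call lost without the filter on low counts. Of these 7 genes, *Ccn2* alone kept its call without *Themis*-KO replicate 1, without *Themis*-KO replicate 2, without WT replicate 1 and without WT replicate 2.

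**Figure D4:**
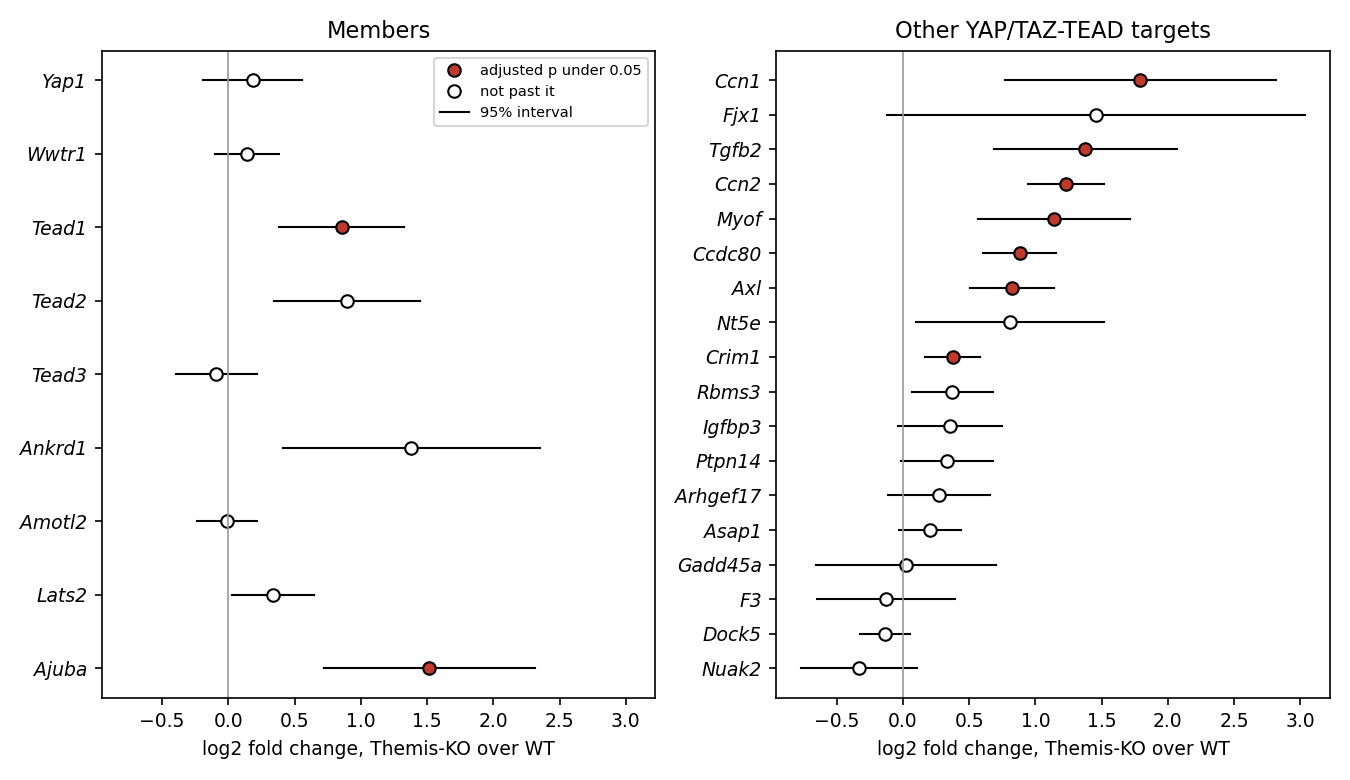
Log2 fold change of livers labelled *Themis*-KO over livers labelled WT with its 95% interval, for the 9 tested members on the left and the 18 other tested targets on the right, filled where the adjusted p from edgeR is under 0.05. *Ajuba* and *Tead1* are filled on the left and 7 genes on the right, with *Ccn2* having a narrow interval, from 0.94 to 1.52.

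Among the Hippo kinases and the proteins that activate them, *Map4k4* rose and *Nf2* fell. These were the calls among 14 such genes, all tested, 1 higher and 1 lower, where 4.97% and 4.14% of all genes were called. Of the 14, 6 had an unadjusted p under 0.05 (30.7% of all genes), and the median log2 fold change was 0.098. *Map4k4*, a kinase that acts on LATS beside the MST kinases, had 18.3, 19.5 and 23.5 CPM in livers labelled WT and 49.4, 41.4 and 27.9 CPM in livers labelled *Themis*-KO, a rise of 0.95 (SE 0.20, 95% interval from 0.48 to 1.42, edgeR adjusted p = 0.0362). *Nf2*, whose protein Merlin recruits LATS to the membrane, had 40.9, 37.1 and 41.1 CPM in livers labelled WT and 30.4, 32.7 and 31.0 CPM in livers labelled *Themis*-KO. It fell by 0.34 (SE 0.083, edgeR adjusted p = 0.0446) on that scale, and its groups did not overlap. Of all genes tested, 16.9% lay lower without overlap. *Nf2* was not called without the filter on low counts or with libraries scaled by total counts alone, and both genes kept their call only without *Themis*-KO replicate 3 among the fits that left out a liver. *Lats1*, the other LATS kinase, was at 28.3 ± 0.487 CPM in livers labelled WT and 28.3 ± 0.709 in livers labelled *Themis*-KO (SD, n = 3 each).

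Of 16 cofactor and junction genes, 14 had a row and 13 were tested, 1 was called higher and 0 lower (4.97% and 4.14% of all genes), and 5 had an unadjusted p under 0.05 (30.7% of all genes). The median log2 fold change was 0.20.

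Single markers of cholangiocytes, stellate cells, endothelial cells and macrophages were called higher in livers labelled *Themis*-KO, as were 4.97% of all genes tested. The summed CPM of 8 cholangiocyte markers was 35.7, 30 and 36.2 in livers labelled WT and 75.8, 42.6 and 43.1 in livers labelled *Themis*-KO, highest in replicate 1, as for *Ankrd1* and *Ccn1*. Of the 8, 1 was called higher and 0 lower, and *Krt19* and *Krt7*, which define these cells, were at 1.15 to 4.63 and 0.912 to 3.87 CPM over the 6 livers. The 8 stellate cell markers summed to 176 to 186 CPM and 223 to 251 CPM, with 2 called higher, and *Col1a1*, at 56.9, 48.2 and 33.8 CPM in that group and 17.3 to 24.3 CPM in livers labelled WT, was lowest in replicate 3 among the livers labelled *Themis*-KO, as were *Ajuba* and *Tead1*. In that group 6 of the 8 stellate markers were lowest in replicate 3, and the other 2, *Reln* at 51.3, 49.3 and 60.9 CPM and *Colec11* at 57.4, 51.3 and 63.5 CPM, were highest there. Replicate 3 was also lowest in 5 of the 7 macrophage and 3 of the 4 mesothelial markers. It was lowest in 3 of 8 cholangiocyte, 2 of 7 endothelial, 2 of 7 hepatocyte, 1 of 6 T cell, 0 of 4 B cell and 0 of 4 smooth muscle markers. Macrophage markers (7 genes, 3 called higher) summed to 239 to 381 CPM and 403 to 517 CPM, and sinusoidal endothelial markers (7 genes, 1 called higher) to 206 to 226 CPM and 228 to 254 CPM. Of the 7 endothelial markers, 5 had a positive log2 fold change, and *Clec4g* and *Kdr* had negative ones (−0.17 and −0.13). Hepatocyte markers had 1 of 7 called lower (4.14% of all genes tested). T cell, B cell, mesothelial and smooth muscle markers had 0 called in edgeR and overlapped in their sums, at no more than 16.5 CPM for any list in any liver. The part of these cell types in the levels of the 10 genes was not tested.

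By the root mean square difference of log2 CPM over the 6 livers, each gene centred on its mean, the genes most like *Yap1* among 14495 others were *Prdm4*, *Galnt2* and *Vhl*, at 0.0336, 0.0381 and 0.0392. Those most like *Wwtr1* were *Nek8*, *Hnrnpdl* and *Naf1*, at 0.0246, 0.0265 and 0.0280. Their log2 fold changes lay from 0.15 to 0.24, none of them called. *Cldn4* and *Mtcl1* came first for *Ankrd1*, at larger distances of 0.117 and 0.126, with log2 fold changes of 1.26 and 1.299 (adjusted p = 0.103 and 0.0593 from edgeR). None of the genes named here as nearest was a member or a gene of the other lists.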

How the data were processed

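Livers of 3 mice labelled WT and 3 labelled *Themis*-KO were compared. The authors trimmed paired-end reads with cutadapt 2.3, mapped them to GRCm38 with STAR 2.7.8a and estimated gene counts with RSEM 1.3.3, per their methods and processing notes. The deposited estimated counts are whole numbers and not normalized. The annotation release is not given in the sources used here.

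The groups were compared in edgeR 4.0.16 (R 4.3.3). After filterByExpr, which kept 14496 of 25403 genes, and TMM scaling, all 6 livers entered 1 quasi-likelihood fit (glmQLFit, glmQLFTest) with no covariate. Adjusted p-values (Benjamini-Hochberg, all genes of the fit) under 0.05 were called. Intervals use the test's degrees of freedom. Permutation tests were exact and two-sided, over 3 livers against 3. The single-gene permutation test used log2(CPM + 0.1). Nothing in the labels says how the animals were chosen, so p-values set the difference between the labels against the variation among these livers alone. The fit was tested on simulated counts that held neither an outlying liver nor the mitochondrial type, so that test bears on neither.

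Coordinates, exons and lengths came from GENCODE vM21 (GRCm38), in which 25321 of the 25403 genes had an entry, and promoter windows from RefSeq (GRCm38.p6). Level comparisons between genes used CPM per kilobase of merged exon. DESeq2 1.42.0, other scalings and filters, the replicate block, the mitochondrial type and each liver left out were the alternatives. The 10 genes, the lists and the naming rule (the 10 genes, *Themis*, *Ccn1*, *Ccn2*, up to 5 called genes per list and direction, and the 3 nearest genes of *Yap1*, *Wwtr1* and *Ankrd1*) were chosen with earlier results of these data known. Some genes that the naming rule covers are not reported here. Figures were drawn with matplotlib 3.10.9.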

Additional observations from a re-analysis of the deposited data

How the results depend on the processing

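Same-numbered livers were not more alike in their deviations from the group means (mean correlation −0.16, against 0.080 for different numbers, and 0.01, −0.31 and −0.18 for numbers 1, 2 and 3). Centring within groups of 3 ties these means to each other, so they cannot decide whether the numbers pair the livers. The authors speak of 3 pairs of livers and do not say which livers were paired. With the replicate number as a block, 0 members were called higher (4 had an unadjusted p under 0.05), 1 other target (*Ccn2*), 0 Hippo kinase genes higher and 0 lower (6 with an unadjusted p under 0.05) and 0 cofactor and junction genes (5 with an unadjusted p under 0.05), and of all genes 17 were higher and 45 lower (23.8% with an unadjusted p under 0.05). With the mitochondrial type as a covariate, which leaves 1 WT liver to compare within a type, these counts were 0 in every list (2, 5, 4 and 0 genes with an unadjusted p under 0.05, and 10.5% of all genes), and 0 genes in all were higher and 3 lower. Scaling by total counts alone moved the median of all genes from 0.0095 to 0.15 and gave 1449 genes higher and 387 lower, 4 Hippo kinase genes higher and 0 lower, and 4 cofactor and junction genes. No filter on low counts gave 1212 and 967 genes, 2 Hippo kinase genes higher and 0 lower, and 4 cofactor and junction genes. DESeq2 gave 1279 and 1090 genes, 2 Hippo kinase genes higher and 4 cofactor and junction genes, and at least 10 counts in every liver gave 2 cofactor and junction genes. With the settings of the report these were 721 and 600 genes in all.

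In the fits that left out 1 liver, members called higher ran from 0 to 5, other targets from 1 to 8, Hippo kinase genes higher from 0 to 5 and lower from 0 to 1, and cofactor and junction genes from 0 to 6. Members with an unadjusted p under 0.05 ran from 4 to 7 in these fits, with 7 in the fit lacking *Themis*-KO replicate 3, where 42.5% of all genes had one (19.9% to 28% in the other 5 fits). Of all genes, 8 were higher and 12 lower in the fit lacking *Themis*-KO replicate 1, and 2228 and 2039 in the fit lacking *Themis*-KO replicate 3. *Tead3* changed sign to 0.051 with total counts, 0.087 with the mitochondrial type and 0.034 without WT replicate 1. *Amotl2* changed sign to 0.13 with total counts, 0.17 with the mitochondrial type, 0.067 without WT replicate 2 and 0.0060 without *Themis*-KO replicate 1, in a range of such fits from −0.093 to 0.067. No member was called lower under any alternative, and no other gene whose fold change was recomputed changed sign. *Lats1* and single cell markers were not recomputed. The causes were not tested. Depth limits *Tead2*, *Tead4* and *Ankrd1*, with 52 counts or fewer in every liver.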
